A study of Mus musculus with 12 samples.

Results

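The MHC class I antigen processing genes taken here are 9 genes: B2m, Tap1, Tap2, Tapbp, Psmb8, Psmb9, Psmb10, Psme1 and Psme2. They were chosen by name for their place in the pathway, and each was read from the probe set with its symbol that had the highest mean over the 12 arrays. Of the 9 genes, 8 had a probe set of their own, out of 18194 genes with one on the array, and these 8 are the genes counted below. The only probe set of Psme2 is listed for Psme2b as well, so its values are given apart and belong to either gene.

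MHC class I molecules display short peptides from proteins of the cell's own interior to cytotoxic T cells. The proteasome cuts the proteins, the TAP transporter carries the peptides into the endoplasmic reticulum, tapasin holds the empty class I molecule at the transporter, and beta-2 microglobulin is the light chain that every classical class I molecule needs. Interferon gamma raises this set of genes in most cells, fibroblasts included, and swaps the catalytic subunits of the constitutive proteasome for the immunoproteasome subunits encoded by Psmb8, Psmb9 and Psmb10.

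RNA of mouse embryonic fibroblasts (MEFs), collected in exponential growth without treatment, was measured in 4 groups of 3 arrays each. The groups were TKO-Ras MEFs (deleted for Rb1, p107 and p130 and carrying RasG12D), TKO MEFs (the same 3 deletions, in the genes now called Rb1, Rbl1 and Rbl2), Rb1KO MEFs (deleted for Rb1) and WT MEFs. No group received interferon. By their titles the 3 samples of each group are biological replicates, while the labels give neither the embryos, cultures or clones behind them nor the way Ras was introduced, so each p-value measures the spread between these RNA samples. The values are log2 RMA values, on which a difference of 1 is a doubling of signal, and levels of different probe sets are not compared.

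The labels and the cell type were checked against marker genes. Rbl1 lay at 4.004 to 4.99 in TKO-Ras MEFs and at 4.42 to 5.12 in TKO MEFs, all under the background level of 5.13, against 8.18 to 8.32 in WT MEFs. Rb1 lay at 7.51 to 7.74 in Rb1KO MEFs and at 8.31 to 8.70 in WT MEFs, a log2 fold change of -0.92. Rb1 was above background on all 12 arrays, at 7.45 to 7.66 in TKO-Ras MEFs and 6.97 to 7.43 in TKO MEFs. Rbl2 lay at 4.60 to 5.35 in TKO-Ras MEFs and 5.27 to 5.71 in TKO MEFs, against 7.54 to 7.90 in WT MEFs, so it was lower but above background on every TKO array. Arrays labelled Rb1KO had low Rbl2 too, at 3.80 to 4.47, so they differed from WT MEFs in another Rb family gene that their label does not name, and Rbl2 was higher in TKO than in Rb1KO MEFs by 1.27 (adjusted p = 0.0041). Of 14 fibroblast markers measured, 11 were above background on every TKO-Ras array, 12 on every TKO array, 14 on every Rb1KO array and 13 on every WT array, and Vim lay between 13.94 and 14.51 on all 12 arrays. Thy1 was below background in TKO-Ras MEFs (4.74 to 4.92) and TKO MEFs (4.64 to 4.80) and lay at 10.41 to 11.10 in WT MEFs. Like Thy1, Lum was below background on every TKO-Ras array (4.05 to 4.55), and Postn lay at 4.76 to 6.90 in TKO-Ras MEFs against 11.08 to 14.50 in WT MEFs. Against WT MEFs, 7 of the 14 markers fell and 0 rose in Rb1KO MEFs. In TKO MEFs 6 fell and 1 rose, and in TKO-Ras MEFs 7 fell and 0 rose. Over all probe sets 10.1%, 9.01% and 12.4% fell in these 3 comparisons, and 12.5%, 10.5% and 15.5% rose. Ptprc, which marks leukocytes, was below background on all 12 arrays. Of 15 macrophage and leukocyte markers, though, 6 were above background on every TKO-Ras array and 4 on every TKO array. The counts were 4 for Rb1KO and 5 for WT MEFs. Against WT MEFs, Cd14 rose by 1.25 in TKO and 1.82 in TKO-Ras MEFs, and Cd68 by 0.96 in TKO MEFs. Lyz1, near background, fell by 1.71 in TKO and 1.84 in TKO-Ras MEFs. Of 10 epithelial markers 2 rose in TKO-Ras MEFs (Krt19 by 3.10) and 0 fell, where 15.5% of all probe sets rose and 12.4% fell. Of 12 endothelial markers 2 rose in TKO MEFs (Erg by 2.39) and 0 fell, where 10.5% of all probe sets rose and 9.01% fell. In Rb1KO MEFs 2 endothelial markers rose (Flt1 by 2.07) and 1 fell (Tek by 0.67), where 12.5% and 10.1% did. These counts are against WT MEFs.

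WT replicate 3 stood apart from the other WT arrays. Over all probe sets it correlated least with its group (mean r = 0.974), and it was the highest WT array in 8 of 8 genes, by a median of 0.61 above the group mean, while it was the highest WT array for 40.7% of probe sets above background. TKO replicate 1 was the lowest TKO array in 8 of 8 genes, with a median deviation of -0.35. Over all probe sets above background its median deviation was 0.01, and it was the highest TKO array for 36.4% of them. Without it, in TKO against WT MEFs, Psmb8 had 0.99 in place of 0.60 and Tap2 0.0093 in place of -0.25, neither of which passed. The median SD of the 8 genes was 0.22 in TKO-Ras MEFs, 0.47 in TKO MEFs, 0.30 in Rb1KO MEFs and 0.54 in WT MEFs, against medians of 0.16, 0.15, 0.14 and 0.20 in the same groups over all probe sets above background. Results that WT replicate 3 changes are therefore also given without it, an alternative that leaves 2 WT arrays. Because it was the highest WT array in 8 of 8 genes, leaving it out had to raise each of their values against WT MEFs.

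**Figure D1:**
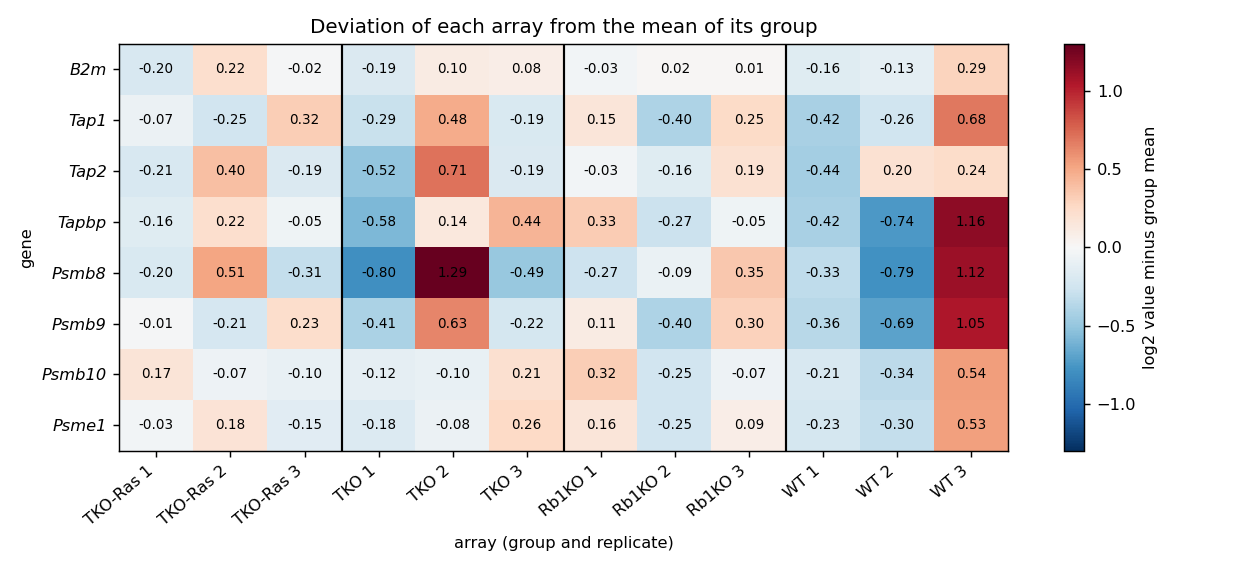
Deviation of each array from the mean of its group, on the log2 scale, for the 8 genes (rows) on the 12 arrays (columns, TKO-Ras MEFs at the left and WT MEFs at the right). Every value in the column of WT replicate 3 is above 0, with a median of 0.61, and every value in the column of TKO replicate 1 is below 0.

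The promoters of 3 of these genes are shown, chosen with the comparisons below known. A link between their motifs and the levels of the genes was not tested. Each window runs from 250 bases before to 50 bases after the RefSeq start of the gene in GRCm38.p6, in the direction of transcription, and capitals mark every match to a motif searched on both strands. The motifs were the core of the interferon-stimulated response element (GAAA, any 2 bases, GAAA), the STAT element GAS (TTCNNNGAA), an NF-kB motif (GGGA, any 2 bases, TTCC), an E2F motif (TTTNNCGC) and the CRE (TGACGTCA). No 2 of the matches overlap. B2m at chr2:122147437-122147736 (plus strand) held 1 match to the interferon motif and 1 to the NF-kB motif on the minus strand, Tap1 at chr17:34187306-34187605 (plus strand) held 1 match to the E2F motif, and Psme1 at chr14:55578244-55578543 (plus strand) held 1 match to the interferon motif on the minus strand, after its start.
B2m: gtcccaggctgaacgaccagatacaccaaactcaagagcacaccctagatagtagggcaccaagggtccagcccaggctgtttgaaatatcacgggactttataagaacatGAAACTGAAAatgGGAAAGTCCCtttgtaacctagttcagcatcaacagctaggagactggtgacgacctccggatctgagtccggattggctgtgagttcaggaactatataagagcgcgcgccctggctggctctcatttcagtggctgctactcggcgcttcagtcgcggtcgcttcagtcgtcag
Tap1: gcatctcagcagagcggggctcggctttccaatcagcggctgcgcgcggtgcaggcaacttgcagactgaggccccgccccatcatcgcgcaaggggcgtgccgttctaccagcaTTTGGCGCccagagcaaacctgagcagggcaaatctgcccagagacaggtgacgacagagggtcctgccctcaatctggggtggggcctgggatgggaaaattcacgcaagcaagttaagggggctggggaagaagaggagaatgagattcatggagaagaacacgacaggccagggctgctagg
Psme1: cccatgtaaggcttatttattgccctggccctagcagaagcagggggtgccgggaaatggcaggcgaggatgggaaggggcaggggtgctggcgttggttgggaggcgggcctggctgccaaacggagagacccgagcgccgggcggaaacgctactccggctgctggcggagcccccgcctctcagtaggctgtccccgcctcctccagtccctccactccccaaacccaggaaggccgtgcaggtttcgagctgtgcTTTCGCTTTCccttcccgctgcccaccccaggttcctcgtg
Of all 32851 windows of this length, 3.44% held the interferon motif, 8.3% the GAS motif, 1.47% the NF-kB motif, 5.17% the E2F motif and 1.79% the CRE. Windows were at hand for 8 of the 9 genes, and Tap2 had none. Tap1 and Psmb9 are transcribed away from each other from start sites 226 bases apart, so their windows share 275 bases and the 1 E2F match was found in both. Psmb8 held 1 GAS match, at positions -97 to -89 from its start, and the windows of Tapbp, Psmb10 and Psme2 held none of the 5 motifs. A match is a stretch of letters and not a measured binding site.

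B2m, the light chain, had the lowest levels in TKO-Ras MEFs. Its log2 values were 12.58, 13.00 and 12.76 in TKO-Ras MEFs, 12.91, 13.20 and 13.18 in TKO MEFs, 13.37, 13.42 and 13.42 in Rb1KO MEFs, and 13.40, 13.43 and 13.85 in WT MEFs. All 6 arrays with the 3 deletions were below all 6 others, and TKO-Ras and TKO MEFs overlapped. The log2 fold change was -0.78 in TKO-Ras MEFs against WT MEFs (SE 0.15, adjusted p = 0.0021 from limma), a 1.71-fold decrease, and -0.46 in TKO MEFs against WT MEFs (SE 0.15, adjusted p = 0.044). The first call held when any 1 of the 6 arrays was left out, while the second was lost on leaving out any array but WT replicate 1, with -0.32 (adjusted p = 0.13) without WT replicate 3. The other B2m probe set gave -0.83 for TKO-Ras MEFs (adjusted p = 0.0020) and -0.43 for TKO MEFs (adjusted p = 0.081). Since bulk RNA was measured, fewer cells making a transcript and less of it per cell cannot be told apart here or below.

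Tap1 and Tap2 encode the paired subunits of the peptide transporter. Tap1 had 5.57, 5.39 and 5.97 in TKO-Ras MEFs, 6.59, 7.36 and 6.69 in TKO MEFs, 6.62, 6.07 and 6.71 in Rb1KO MEFs, and 6.65, 6.82 and 7.76 in WT MEFs. The TKO-Ras arrays were the 3 lowest of the 12, and the other groups overlapped. Tap1 fell by 1.43 on the log2 scale in TKO-Ras MEFs against WT MEFs (SE 0.31, adjusted p = 0.0046), a 2.70-fold decrease that held when any 1 of the 6 arrays was left out. Against TKO MEFs it fell by 1.23 (SE 0.31, adjusted p = 0.038), a 2.35-fold decrease, but with any 1 of the 6 arrays left out the adjusted p lay between 0.053 and 0.15. In TKO MEFs against WT MEFs the value was -0.20 (95% confidence interval -0.87 to 0.47).

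Tap2 had 5.93, 6.53 and 5.95 in TKO-Ras MEFs, 6.46, 7.68 and 6.79 in TKO MEFs, 7.02, 6.89 and 7.24 in Rb1KO MEFs, and 6.79, 7.43 and 7.47 in WT MEFs. TKO-Ras MEFs were below every WT array and overlapped TKO MEFs at TKO replicate 1. Tap2 fell by 1.09 in TKO-Ras MEFs against WT MEFs (SE 0.30, adjusted p = 0.017), with adjusted p-values of 0.055 to 0.061 without TKO-Ras replicate 1, TKO-Ras replicate 3 or WT replicate 2. Against TKO MEFs its value of -0.84 did not pass (adjusted p = 0.14). The other 3 Tap1 probe sets carried little signal: 2 were never above background, and 1 averaged 5.22, was above background on 9 arrays and had values of 0.14 in TKO-Ras against TKO MEFs and 0.08 in TKO-Ras against WT MEFs (adjusted p = 0.58 and 0.64). With the mean of all its probe sets Tap1 no longer passed, at -0.33 against TKO MEFs (adjusted p = 0.098) and -0.29 against WT MEFs (adjusted p = 0.0555).

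Tapbp encodes tapasin, the bridge between the transporter and the class I molecule. It had 8.68, 9.06 and 8.79 in TKO-Ras MEFs, 9.98, 10.71 and 11.01 in TKO MEFs, 10.30, 9.70 and 9.92 in Rb1KO MEFs, and 9.59, 9.27 and 11.17 in WT MEFs. The TKO-Ras arrays were again the 3 lowest, and WT replicate 3 was the highest of all 12. Tapbp fell by 1.72 in TKO-Ras MEFs against TKO MEFs (SE 0.42, adjusted p = 0.036), a 3.31-fold decrease, and its other probe set fell by 1.38 (adjusted p = 0.022). The call stood without TKO replicate 1 (adjusted p = 0.033) and was lost without each of the other 5 arrays, with values between -1.83 and -1.50. Against WT MEFs the value was -1.17 (adjusted p = 0.059), with -0.59 without WT replicate 3 (adjusted p = 0.13) and -1.54 without WT replicate 2, where it passed (adjusted p = 0.021). It passed with array weights, cyclic loess or a filter on dim probe sets too (adjusted p = 0.034, 0.0485 and 0.047). In TKO MEFs against WT MEFs it was 0.56 (adjusted p = 0.42), and without WT replicate 3 it was 1.14 (adjusted p = 0.011).

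**Figure D2:**
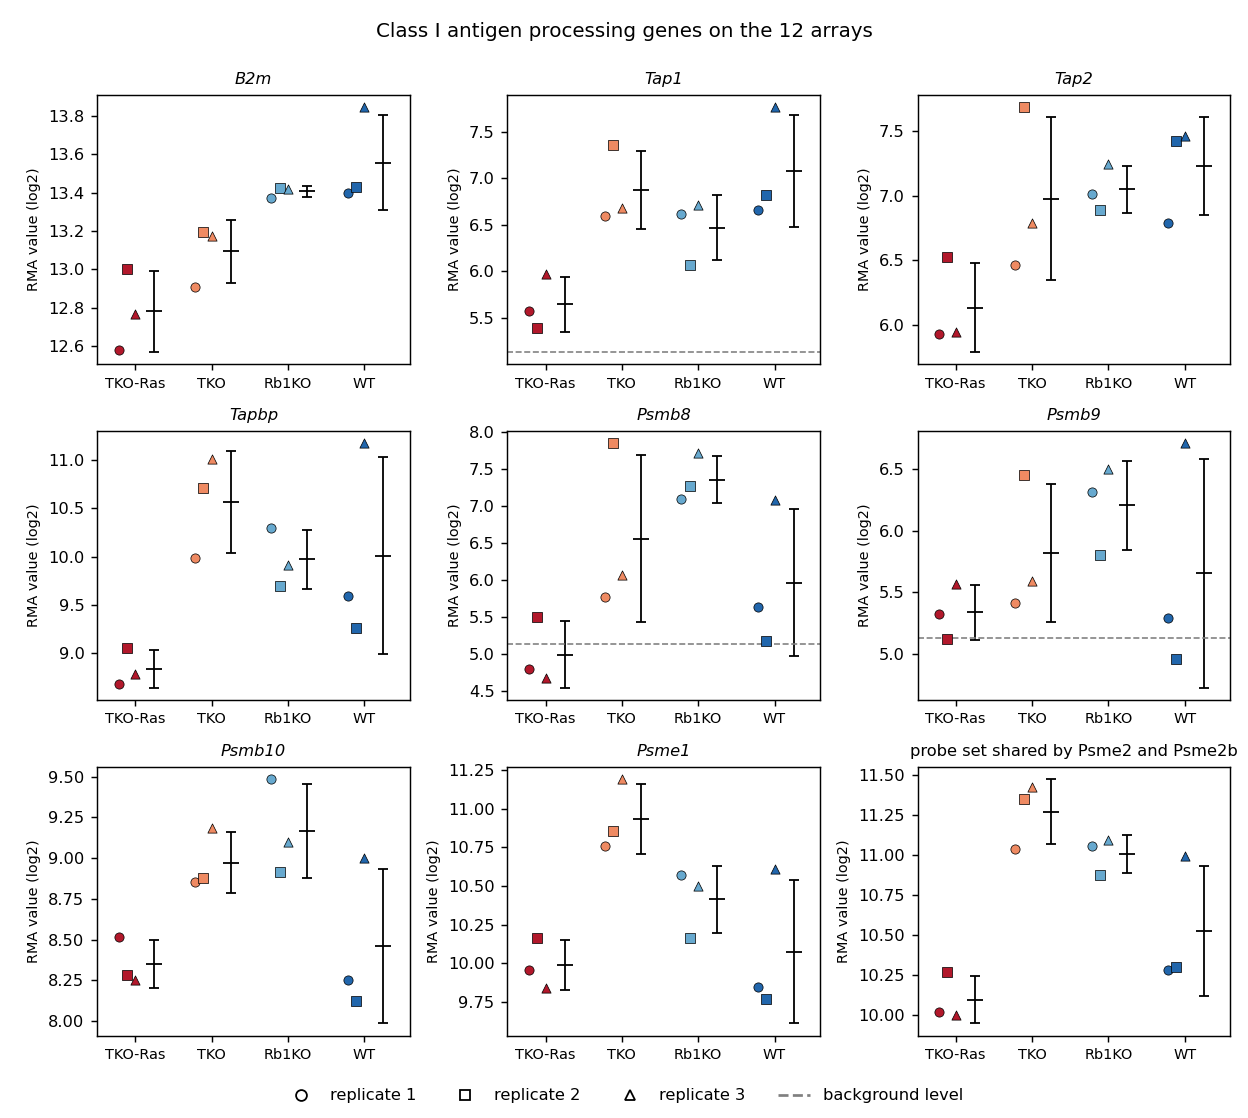
Log2 RMA values of the 8 genes and of the probe set shared by Psme2 and Psme2b on each array, with TKO-Ras, TKO, Rb1KO and WT MEFs from left to right. Each marker is 1 array (its shape gives the replicate number), the bar beside each group is its mean and SD (n = 3), and the dashed line is the background level of 5.13 where it falls in the panel. TKO-Ras MEFs have the lowest mean in all 9 panels, and the triangle of WT replicate 3 is the highest WT array in each.

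Of the immunoproteasome subunits, Psmb8 and Psmb9 were near background on several arrays and Psmb10 was well above it on all 12. Psmb8, which takes the place of the constitutive subunit Psmb5, had 4.79, 5.501 and 4.67 in TKO-Ras MEFs, 5.76, 7.85 and 6.06 in TKO MEFs, 7.09, 7.27 and 7.71 in Rb1KO MEFs, and 5.63, 5.17 and 7.08 in WT MEFs. Rb1KO MEFs were above every WT array by a narrow margin, and TKO-Ras MEFs were below every TKO array. Neither difference passed over all arrays: the value was 1.39 in Rb1KO MEFs against WT MEFs (adjusted p = 0.10) and -1.57 in TKO-Ras MEFs against TKO MEFs (adjusted p = 0.14). Without WT replicate 3 the first was 1.95 and passed (adjusted p = 0.015).

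Psmb9, which takes the place of Psmb6, had 5.32, 5.12 and 5.56 in TKO-Ras MEFs, 5.41, 6.45 and 5.59 in TKO MEFs, 6.31, 5.80 and 6.501 in Rb1KO MEFs, and 5.29, 4.96 and 6.71 in WT MEFs. It passed in no comparison, and its groups overlapped in each of the 5. Without WT replicate 3 it was higher in Rb1KO MEFs than in WT MEFs by 1.08 (adjusted p = 0.019).

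Psmb10, which takes the place of Psmb7, had 8.52, 8.28 and 8.25 in TKO-Ras MEFs, 8.86, 8.88 and 9.19 in TKO MEFs, 9.48, 8.91 and 9.10 in Rb1KO MEFs, and 8.25, 8.12 and 8.998 in WT MEFs. It rose by 0.71 in Rb1KO MEFs against WT MEFs (SE 0.22, adjusted p = 0.038), although WT replicate 3 lay above Rb1KO replicate 2. The call was lost without Rb1KO replicate 1, Rb1KO replicate 3, WT replicate 1 or WT replicate 2 (adjusted p between 0.077 and 0.14), and without WT replicate 3 the value was 0.98 (adjusted p = 0.0015). In TKO MEFs against WT MEFs the value was 0.51 (adjusted p = 0.14), and 0.78 without WT replicate 3 (adjusted p = 0.0067).

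Psme1 encodes a subunit of the PA28 ring, which caps the proteasome and is induced by interferon gamma. It had 9.96, 10.16 and 9.84 in TKO-Ras MEFs, 10.76, 10.86 and 11.19 in TKO MEFs, 10.57, 10.17 and 10.50 in Rb1KO MEFs, and 9.85, 9.77 and 10.61 in WT MEFs. All TKO arrays were above all others, and TKO-Ras MEFs lay among the WT arrays. Psme1 rose by 0.86 in TKO MEFs against WT MEFs (SE 0.21, adjusted p = 0.015), a 1.81-fold increase, and by 1.13 without WT replicate 3 (adjusted p = 4.8e-04), but without WT replicate 1, WT replicate 2 or TKO replicate 3 the adjusted p was 0.055 to 0.060. In TKO-Ras MEFs against TKO MEFs it fell by 0.95 (SE 0.21, adjusted p = 0.025), a call that held without TKO replicate 1 or TKO-Ras replicate 2 and was lost without each of the other 4 arrays. In TKO-Ras MEFs against WT MEFs the value was -0.09 (95% confidence interval -0.56 to 0.38).

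The probe set shared by Psme2, the other subunit of that ring, and Psme2b had 10.02, 10.27 and 9.998 in TKO-Ras MEFs, 11.04, 11.35 and 11.42 in TKO MEFs, 11.05, 10.87 and 11.10 in Rb1KO MEFs, and 10.28, 10.30 and 10.995 in WT MEFs. Its TKO-Ras arrays were the 3 lowest. It rose by 0.75 in TKO MEFs against WT MEFs (adjusted p = 0.015) and fell by 1.18 in TKO-Ras MEFs against TKO MEFs (SE 0.19, adjusted p = 0.0037). Which of the 2 genes gave the signal cannot be told apart.

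The fitted values of all 8 genes were below 0 in TKO-Ras MEFs, both against TKO MEFs and against WT MEFs. Against TKO MEFs, 3 fell (Tap1, Tapbp and Psme1) and 0 rose, where 3.13% of all probe sets fell and 2.54% rose. The median log2 fold change of the 8 was -0.90, against 0.04 over all probe sets, with values from -1.72 for Tapbp to -0.31 for B2m. In 5 of the 8 every TKO-Ras array lay below every TKO array, as in 11.1% of all probe sets, while in 15.4% of all probe sets every TKO-Ras array lay above. All 8 values stayed below 0 under every alternative run. The count of calls was less stable, at 0 to 2 with 1 of the 6 arrays left out: none of the 3 remained without TKO replicate 2, TKO replicate 3, TKO-Ras replicate 1 or TKO-Ras replicate 3.

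Fibroblast markers moved in the same comparison, in which 3.13% of all probe sets fell and 2.54% rose. Of 14 measured, 7 fell in TKO-Ras MEFs against TKO MEFs and 0 rose, with a median of -1.04, and the log2 of their summed level lay at 15.75 to 15.81 in TKO-Ras MEFs against 16.34 to 16.52 in TKO MEFs. Col1a1, a fibrillar collagen chain, fell by 2.45 (adjusted p = 2.4e-05) and Col1a2 by 1.16 (adjusted p = 2.9e-04). Among 10 epithelial markers 0 rose and 1 fell, although their summed level was higher, at 10.54 to 11.17 in TKO-Ras MEFs and 9.18 to 9.73 in TKO MEFs on the log2 scale. Of 15 macrophage and leukocyte markers 0 rose and 0 fell, with the summed level at 9.51 to 9.73 in TKO-Ras MEFs and 9.27 to 9.43 in TKO MEFs. Of 12 endothelial markers 0 rose and 1 fell. That was Erg, at background in TKO-Ras MEFs and lower by at least 7.22-fold (adjusted p = 0.0076 from limma). The part of any of these lists in the results on the 8 genes was not tested.

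Against WT MEFs, TKO-Ras MEFs had 3 of the 8 genes lower (B2m, Tap1 and Tap2) and 0 higher, where 12.4% of all probe sets were lower and 15.5% higher. With cyclic loess between arrays the split over all probe sets turned round, to 6658 lower and 5177 higher in place of 5575 lower and 7001 higher. The median of the 8 was -0.87, against 0.09 over all probe sets. None of the proteasome members passed, with values of -0.97 for Psmb8 (95% confidence interval -2.19 to 0.25), -0.32 for Psmb9, -0.11 for Psmb10 and -0.09 for Psme1. Without WT replicate 3 Psmb8 had -0.41, and the other 3 values turned positive, to 0.21, 0.16 and 0.18, while the calls of B2m, Tap1 and Tap2 stood (adjusted p = 0.0047, 0.0080 and 0.044).

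In TKO MEFs against WT MEFs the pathway did not move in 1 direction. Psme1 rose and B2m fell, 1 of 8 each way, where 10.5% of all probe sets rose and 9.01% fell. Cyclic loess turned that split too, to 3988 higher and 4761 lower in place of 4725 higher and 4060 lower. The median of the 8 was 0.34, and 0.03 over all probe sets. Without WT replicate 3, 3 genes were higher (Tapbp, Psmb10 and Psme1) and 0 lower, where 4911 of all 45037 probe sets were higher and 4525 lower. In Rb1KO MEFs against WT MEFs 1 of 8 rose (Psmb10) and 0 fell, where 12.5% of all probe sets rose and 10.1% fell, and the median was 0.15 against 0.07. Here too cyclic loess turned the split over all probe sets, to 4271 higher and 5596 lower in place of 5646 higher and 4537 lower, and Psmb10 no longer passed. Without WT replicate 3, 4 genes were higher: Psmb8, Psmb9, Psmb10 and Psme1, by 1.95, 1.08, 0.98 and 0.60. Of all 45037 probe sets 5658 were then higher and 5101 lower. As that array was the highest WT array for each of the 8 genes, a rise of their values on leaving it out was given in advance. These comparisons share the WT arrays and are not independent.

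Between TKO MEFs and Rb1KO MEFs 0 of the 8 genes rose and 0 fell, at an adjusted p under 0.05 in limma, where 4.19% of all probe sets rose and 2.99% fell. The widest intervals leave room for sizeable differences: that of Psmb8 ran from -2.02 to 0.42 and that of Tapbp from -0.33 to 1.52. Psme1 had a value of 0.52 (interval 0.05 to 0.99, adjusted p = 0.19) with groups that did not overlap, as in 29.1% of all probe sets.

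**Figure D3:**
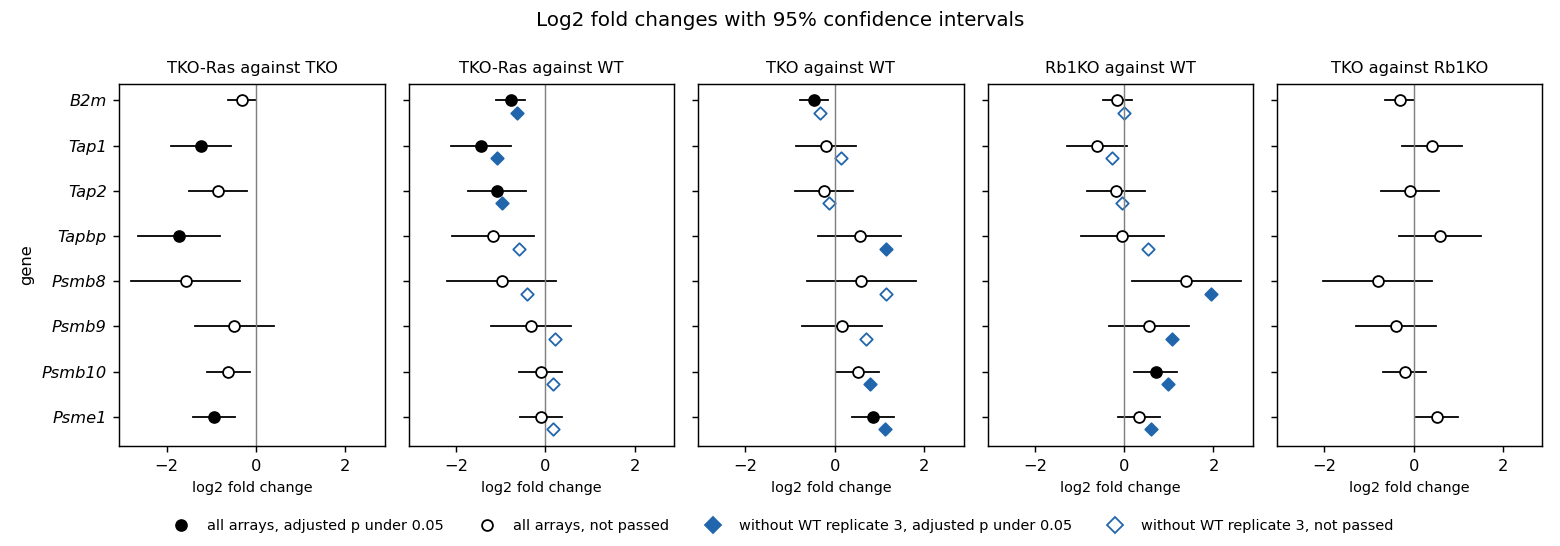
Log2 fold changes of the 8 genes (rows) in 5 comparisons (panels), with lines for the 95% confidence interval. Circles use all 12 arrays and diamonds leave out WT replicate 3, and filled symbols have an adjusted p under 0.05. In the panel of TKO-Ras against TKO MEFs all 8 circles lie below 0. In the panels against WT MEFs the diamonds lie to the right of the circles, as they must, since that array was the highest WT array for each gene.

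TKO-Ras MEFs had the lowest group mean for all 8 genes, and the order above them differed between genes. For B2m and Tap2 the means then climbed through TKO and Rb1KO to WT MEFs, and for Tap1 WT MEFs were also highest, although without WT replicate 3 TKO MEFs lay 0.14 above them. For Psmb8, Psmb9 and Psmb10 the order was TKO-Ras, WT, TKO and Rb1KO MEFs, and for Tapbp and Psme1 TKO MEFs were highest. Only some neighbours in these orders differed beyond their spread: none of the 8 genes passed between TKO and Rb1KO MEFs, and Psmb8, Psmb9, Psmb10 and Psme1 did not pass between TKO-Ras and WT MEFs.

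Most class I heavy chain genes did not pass in TKO-Ras MEFs, where B2m itself passed against WT MEFs and not against TKO MEFs. H2-K1 had 10.24, 10.33 and 10.12 in TKO-Ras MEFs and 10.01, 10.27 and 10.42 in TKO MEFs, a log2 fold change of -0.003 (SE 0.20, adjusted p = 0.997). H2-D1 had 10.54, 10.73 and 10.56 in TKO-Ras MEFs and 10.39, 10.72 and 10.83 in TKO MEFs, a value of -0.03 (SE 0.20, adjusted p = 0.95). Of 9 heavy chain genes with a probe set of their own, out of 19 listed, 3 were never above background. Only Mr1, whose product presents microbial metabolites, fell against TKO MEFs, and it was at background in TKO-Ras MEFs. Of all probe sets 3.13% fell in that comparison. The lowest value of the list there, -1.21, belonged to another gene and did not pass. Against WT MEFs 2 of the 9 fell and 0 rose, where 12.4% of all probe sets fell and 15.5% rose. They were Mr1, by at least 6.12-fold (adjusted p = 2.1e-07), and Cd1d1, whose product presents lipids, by 2.41 (adjusted p = 0.0045), or by 1.67 without WT replicate 3. H2-K1 and H2-D1 had 0.11 and 0.10 in that comparison (adjusted p = 0.72 and 0.73). Probe sets shared by several of the close H2-Q and H2-T genes were not used here, and mRNA levels do not report how much class I protein is on the surface.

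Partners of peptide loading moved in part. Between TKO-Ras and TKO MEFs 2 of 13 measured fell and 1 rose, where 3.13% of all probe sets fell and 2.54% rose. Of 13 genes measured, Tapbpl, a tapasin-related editor of the peptides loaded, and Erap1, the aminopeptidase that trims peptides in the endoplasmic reticulum, fell in TKO-Ras MEFs against TKO MEFs, and the cytosolic peptidase gene Nrd1 rose by 0.63. Tapbpl had 6.51, 6.83 and 6.37 in TKO-Ras MEFs and 7.55, 7.40 and 7.53 in TKO MEFs, a fall by 0.92 (SE 0.14, adjusted p = 0.0033) that held when any 1 of the 6 arrays was left out. Erap1 had 6.27, 6.28 and 6.33 in TKO-Ras MEFs and 6.85, 6.99 and 7.20 in TKO MEFs, a fall by 0.72 (adjusted p = 0.031) that passed without TKO replicate 1 and in none of the other 5 runs with 1 array left out (adjusted p between 0.074 and 0.12). Against WT MEFs 5 of the 13 fell and 1 rose in TKO-Ras MEFs, where 12.4% of all probe sets fell and 15.5% rose. In TKO MEFs 1 fell and 1 rose (9.01% and 10.5% of all probe sets), and in Rb1KO MEFs 2 and 2 (10.1% and 12.5%). Pdia3 fell in all 3 comparisons with WT, by 0.56 in TKO-Ras, 0.335 in TKO and 0.56 in Rb1KO MEFs. Erap1 fell by 1.11 in TKO-Ras MEFs and rose by 0.59 in Rb1KO MEFs (adjusted p = 5.7e-04 and 0.028). The general chaperone Calr passed only between TKO-Ras and WT MEFs among these 3, with -0.79 (adjusted p = 0.0083).

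Many genes of the constitutive proteasome were higher than in WT MEFs, fewest of them in TKO MEFs, and no test compared them with the immunoproteasome subunits. Of the 14 genes of the constitutive 20S core, 13 rose in Rb1KO MEFs, 7 in TKO MEFs and 9 in TKO-Ras MEFs, each against WT MEFs, and 0 fell. Over all probe sets 12.5%, 10.5% and 15.5% rose in these 3 comparisons, and 10.1%, 9.01% and 12.4% fell. With 1 array left out, the counts of the 14 genes that rose were 11 to 13, 3 to 6 and 6 to 9. Psmb6, the constitutive counterpart of Psmb9, had 12.08, 12.07 and 12.05 in TKO-Ras MEFs, 12.40, 11.96 and 12.20 in TKO MEFs, 12.38, 12.34 and 12.44 in Rb1KO MEFs, and 11.52, 11.53 and 11.51 in WT MEFs. It rose against WT MEFs by 0.54 in TKO-Ras MEFs, by 0.66 in TKO MEFs and by 0.86 in Rb1KO MEFs (adjusted p = 0.0026, 0.0011 and 1.5e-04). Psmb5 rose by 0.53, 0.55 and 0.44 in the same 3 comparisons, and Psmb7 by 0.58 in TKO-Ras MEFs and 0.78 in Rb1KO MEFs. In TKO-Ras MEFs against TKO MEFs 1 of the 14 genes rose (Psmb2) and 0 fell, where 2.54% of all probe sets rose and 3.13% fell. The median of the 14 was -0.01, against -0.90 for the 8 genes of the class I pathway.

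Most genes that assemble or activate the proteasome were higher than in WT MEFs too. Of 8 measured, 6 rose and 0 fell in each of the 3 groups against WT MEFs, and 0 rose and 0 fell between TKO-Ras and TKO MEFs. Over all probe sets 15.5% rose in TKO-Ras MEFs, 10.5% in TKO MEFs and 12.5% in Rb1KO MEFs against WT MEFs, and 12.4%, 9.01% and 10.1% fell. Between TKO-Ras and TKO MEFs only 2.54% of all probe sets rose and 3.13% fell, so 0 of 8 is near that share. Psme3, which encodes the PA28 subunit that interferon does not induce, rose by 1.24 in TKO-Ras MEFs, by 0.89 in TKO MEFs and by 1.25 in Rb1KO MEFs, so it was higher in the group in which its relative Psme1 stayed near the WT level. The assembly chaperone gene Psmg4 rose by 0.88, 1.11 and 1.17 in the same 3 comparisons.

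**Figure D4:**
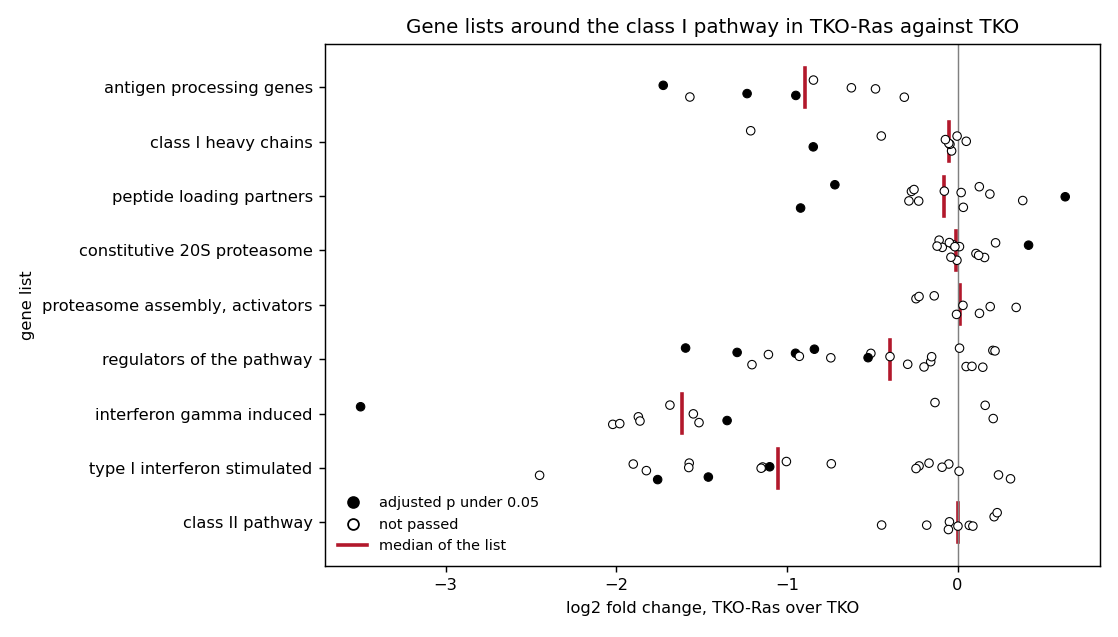
Log2 fold change of each measured gene (1 point) of the class I antigen processing genes and of 8 other lists in TKO-Ras against TKO MEFs. Filled points have an adjusted p under 0.05 and red bars are list medians, at -0.90 for the antigen processing genes, -0.01 for the constitutive 20S proteasome and -1.62 for the interferon gamma induced genes.

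Among 21 measured regulators of the pathway, 5 fell and 0 rose in TKO-Ras MEFs against TKO MEFs. Of all probe sets 3.13% fell and 2.54% rose. Nfkbia, the inhibitor that NF-kB itself induces, had 11.17, 10.89 and 11.49 in TKO-Ras MEFs and 12.60, 12.86 and 12.88 in TKO MEFs, a fall by 1.59 (SE 0.18, adjusted p = 4.3e-04). Relb, an NF-kB subunit, fell by 1.29 (adjusted p = 0.024) and the interferon receptor chains Ifngr2, Ifnar2 and Ifnar1 by 0.95, 0.84 and 0.52. Irf1, the transcription factor that links interferon gamma to this pathway, had 8.62, 8.497 and 8.32 in TKO-Ras MEFs and 9.505, 9.48 and 9.78 in TKO MEFs. Its groups did not overlap, as in 26.5% of all probe sets, and its value of -1.11 did not pass (SE 0.31, adjusted p = 0.067). Without TKO replicate 2, 2 of the 21 fell.

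Nlrc5, the class I transactivator, lay at 4.13, 4.30 and 4.56 in TKO-Ras MEFs and 4.01, 5.03 and 4.42 in TKO MEFs, all below background, at 7.08, 6.20 and 6.99 in Rb1KO MEFs, and at 5.12, 3.97 and 7.11 in WT MEFs. It was at least 3.08-fold lower in TKO MEFs than in Rb1KO MEFs (adjusted p = 0.046), a bound set by the background level. Relb and Nfkbia rose in TKO MEFs against WT MEFs by 1.99 and 1.73, while Ifngr2 fell by 0.62 and Rfx5, a subunit of the complex that binds class I and class II promoters, by 0.77.

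Other interferon-responsive genes lay lower in TKO-Ras MEFs as well. In TKO-Ras MEFs against TKO MEFs 3.13% of all probe sets fell and 2.54% rose. Of 12 interferon gamma induced GTPase and chemokine genes, 2 fell and 0 rose against TKO MEFs, with a median of -1.62: Gbp2 fell by at least 6.46-fold, to values below background in TKO-Ras MEFs (adjusted p = 0.011), and Irgm1 fell by 1.35 (adjusted p = 0.027). Of 20 type I interferon stimulated genes 3 fell and 0 rose, with a median of -1.05: Trim25 by 1.76, Ifih1 by 1.46 and Ifi35 by 1.10. The calls of the type I list in TKO and Rb1KO MEFs against WT MEFs turned on WT replicate 3. Without it the type I genes higher in TKO MEFs numbered 7 of 20 in place of 1, and those higher in Rb1KO MEFs 4 in place of 0. Over all 45037 probe sets, 4911 were higher in TKO MEFs without it, in place of 4725 (10.5%). In Rb1KO MEFs the number was 5658 in place of 5646 (12.5%). In TKO-Ras MEFs against WT MEFs 6 type I genes fell and 1 rose. Of the interferon gamma induced genes 2 fell there (Gbp2 and Irgm1) and 0 rose. Over all probe sets 12.4% fell and 15.5% rose in that comparison. Of 9 genes of the class II pathway 0 rose and 0 fell between TKO-Ras and TKO MEFs, and 5 of the 9 were never above background.

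The genes whose levels ran most like the pathway were ranked by Pearson's r with the mean standardized level of the 8 genes over the 12 arrays, among 12629 genes. The 8 highest outside the pathway were Gbp7 (r = 0.974), Igtp (0.964), Gbp2 (0.962), Cables1 (0.962), Gbp3 (0.960), Bst2 (0.957), Lama4 (0.955) and Parp14 (0.948). The mean standardized level lay at -1.20, -0.86 and -1.11 in TKO-Ras MEFs, -0.14, 0.97 and 0.48 in TKO MEFs, 0.67, 0.11 and 0.67 in Rb1KO MEFs, and -0.39, -0.44 and 1.23 in WT MEFs. The 12 points share their groups, so r reflects both the low TKO-Ras arrays and the high WT replicate 3, and it is a description only.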

How the data were processed

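RNA of 12 samples was measured on Affymetrix MOE430 2.0 arrays. The deposited values are log2 values per probe set, made by the authors with RMA in Partek 6.5; the log2 scale was read from their range of 2.18 to 14.92, and the genome build of the probe sets is not given in the sources used here. The 64 control probe sets were left out of 45101. Of the other 45037, 34945 carry 1 gene symbol, 932 several and 9160 none. All 12 arrays were fitted in 1 limma 3.58.1 model (R 4.3.3, lmFit and eBayes, 8 residual degrees of freedom, 5 contrasts, 2-sided tests), with Benjamini-Hochberg adjustment over all 45037 probe sets and calls at an adjusted p under 0.05. The background level of 5.13 is the 95th percentile over 44 probe sets of olfactory receptors. The number of arrays limits the precision. The members and lists were chosen with earlier results of these data known. All 9 members are named, plus up to 4 called genes of each list and comparison with the largest change, Psmb5, Psmb6, Psmb7, H2-K1, H2-D1, Irf1, Nlrc5, Psme3 and the 8 most similar genes; not all are given, and 1 other gene of the rule is not reported here. Promoter windows are from RefSeq (GRCm38.p6), and 34741 probe sets were matched to it by gene. The code was tested on simulated data. Other settings tried were eBayes with an intensity trend and robust hyperparameters, no moderation, array weights, a replicate block, only the groups compared, median centring, cyclic loess, a filter on dim probe sets, other choices of probe set, and each array left out in turn. Counting Psme2 from its shared probe set, and leaving out WT replicate 3 with TKO replicate 2, were added after seeing the data. Python 3.11.15 with matplotlib 3.10.9 drew the figures.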

Additional observations from a re-analysis of the deposited data

How the results depend on the processing

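Counts of the 8 genes moved with several settings, and except where the setting drops samples or genes the cause was not tested. In TKO against WT MEFs the count of higher genes was 3 with array weights, 0 with only those groups in the fit, 3 without WT replicate 3 and TKO replicate 2 together, 2 with Psme2 counted, and 0 to 3 with 1 array left out; the count of lower genes was 0 without moderation, with only those groups, with median centring, with unsuffixed probe sets (which leave out B2m) and without both arrays, and 0 to 1 with 1 array left out. In Rb1KO against WT MEFs the higher genes numbered 4 with array weights, 0 without moderation, with only those groups or with cyclic loess, 4 without both arrays, and 0 to 4 with 1 array left out. In TKO against Rb1KO MEFs 1 gene was lower without both arrays. In TKO-Ras against TKO MEFs the lower genes numbered 0 without moderation, 5 with array weights and 0 to 2 with 1 array left out, and in TKO-Ras against WT MEFs 1 with unsuffixed probe sets, 2 with the mean of all probe sets (Tap1 lost), 4 with array weights, cyclic loess or the filter on dim probe sets (Tapbp gained), and 2 to 3 with 1 array left out. Uncalled values changed sign, among them that of Psmb8 in TKO against WT MEFs, from 0.60 over all arrays to -0.050 without TKO replicate 2. For TKO against WT MEFs these were Tap1 (0.19 with array weights, 0.032 with the mean of its probe sets, and -0.44 to 0.14 with 1 array left out), Tap2 (0.12 with array weights), and Tap2, Psmb8 and Psmb9 with 1 array left out (-0.60 to 0.0093, -0.050 to 1.15 and -0.18 to 0.69). For Rb1KO against WT MEFs they were Tap2 (0.11 with array weights) and Tapbp (0.38 with array weights, 0.045 with the mean of its probe sets, 0.54 without both arrays, -0.41 to 0.54 with 1 left out). For TKO against Rb1KO MEFs it was Tap2 (0.0090 with array weights, -0.42 to 0.19 with 1 left out), and for TKO-Ras against WT MEFs Psmb9, Psmb10 and Psme1 (0.069, 0.086 and 0.059 with array weights, 0.21, 0.16 and 0.18 without both arrays or without WT replicate 3; with 1 array left out -0.66 to 0.21, -0.28 to 0.16 and -0.24 to 0.18). Among other genes, signs turned in TKO-Ras against TKO MEFs for Psmb5 (0.0012 with array weights; -0.064 to 0.040 with 1 left out), H2-D1 (0.036 with the mean of its probe sets, 0.00042 without both arrays; -0.16 to 0.057), H2-K1 (0.015 without both; -0.11 to 0.089) and Nlrc5 (0.11 without both; -0.40 to 0.11), in TKO against WT MEFs for the called Psma1 (-0.045 with the mean of its probe sets), and in TKO-Ras against WT MEFs for Lyz1 (0.0087 with unsuffixed probe sets). Whether the replicate numbers pair the samples could not be decided, since the 3 deviations within a group sum to 0, which constrains their correlations. Deviations of same-numbered arrays correlated between -0.24 and 0.35 over 18 pairs, and those of other arrays between -0.45 and 0.37. Of the 12 arrays, 6 correlated best with their own number. With the replicate block the counts of the 8 genes in TKO-Ras against TKO MEFs stayed at 3 lower and 0 higher, and no count of them in the other comparisons changed. A background of 3.84 (the median of the olfactory receptors) or 5.82 (a higher percentile) changes which values are called at background, and no test. With array medians shifted by centring or loess, the median over all probe sets moved by under 0.1. Over the settings that tested all 45037 probe sets, the calls over all of them numbered 550 to 2016 higher and 789 to 2415 lower in TKO-Ras against TKO MEFs, 4800 to 9541 higher and 4121 to 6923 lower in TKO-Ras against WT MEFs, 3326 to 6840 higher and 2698 to 6109 lower in TKO against WT MEFs, 4271 to 8385 higher and 3491 to 6361 lower in Rb1KO against WT MEFs, and 1224 to 2979 higher and 782 to 2533 lower in TKO against Rb1KO MEFs.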

Other observations

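Within the interferon-responsive lists, single genes went different ways in the knockouts. Cxcl10, which encodes a chemokine for T cells, had 6.93, 5.60 and 7.57 in TKO-Ras MEFs, 8.19, 8.35 and 8.21 in TKO MEFs, 9.08, 8.02 and 8.36 in Rb1KO MEFs, and 5.10, 4.22 and 6.75 in WT MEFs. It rose by 2.89 in TKO MEFs (SE 0.60, adjusted p = 0.0055 from limma) and by 3.13 in Rb1KO MEFs (SE 0.60, adjusted p = 0.0028) against WT MEFs, and both calls held when any 1 of the arrays compared was left out. Ifit2, an antiviral gene, had 9.39, 9.56 and 10.26 in TKO MEFs, 6.98, 5.21 and 6.57 in Rb1KO MEFs, and 8.20, 8.34 and 8.54 in WT MEFs, so that TKO MEFs lay above and Rb1KO MEFs below every WT array. Between TKO and Rb1KO MEFs the log2 fold change of Ifit2 was 3.48 (SE 0.38, adjusted p = 2.0e-04), with 2.96 to 3.85 on leaving out 1 array.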
